A study of Mus musculus with 4 samples.

Results

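The AP-1, ATF3 and EGR factors are 10 genes of the immediate early transcription factor response: Fos, Fosb and Fosl2, Jun, Junb and Jund, Atf3, Egr1 and Egr2, and Ier2. They were taken by symbol from the deposited table, where all 10 were found among 24497 listed features. Their transcripts were measured by poly(A) RNA sequencing of spleen mononuclear cells. The mice carried an acute myeloid leukaemia driven by MLL-AF9, a fusion of the MLL and AF9 genes. The 2 CS1 libraries came from mice given CS1, a compound labelled as blocking FTO, an enzyme that removes m6A from RNA. It was dosed at 5 mg/kg into the peritoneum on alternate days over 20 days. The 2 PBS libraries came from mice given PBS. Every recipient in either group had been irradiated with 320 rads and had received 50000 CD45.2 marrow cells of a primary MLL-AF9 leukaemia 1 week before dosing, and beads were used to enrich CD45.2 cells from its spleen. The ages of the mice and the number of donor leukaemias are not given in the labels, nor do they tie the 2 libraries of a group to separate animals. A p-value here therefore reflects the spread between libraries, which could be technical. For CS1 replicate 2 one label, its treatment, names CS2 and not CS1. Its title and description name CS1, so it was kept there, and values without it are given where they change a call among the 10 genes. Counts called in some of the other gene lists also changed without it, and those are not given.

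AP-1 is a dimer of basic leucine zipper proteins. FOS proteins bind DNA mainly as partners of a JUN protein, while JUN proteins can also pair with each other or with ATF proteins such as ATF3. EGR1 and EGR2 are zinc finger factors that are switched on beside FOS when the ERK pathway phosphorylates cofactors of serum response factor, and in marrow EGR and JUN proteins are known for roles in monocyte and macrophage differentiation. The messenger RNAs of this group are made within minutes of a stimulus and decay quickly, and they are also known to rise while tissue is taken apart into single cells.

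The DNA just upstream of the transcription starts of these genes is shown first, where it was at hand. It is given as 120 bases that end at the base before the start, 5′ to 3′ on the gene's own strand. The source is RefSeq on GRCm38.p6, the assembly of mm10. Whether this DNA bears on the changes below was not tested. Capitals mark the letters TGACG on either strand, which is the core of the cyclic AMP response element, the TATA box TATAAA, the EGR site GCGGGGGCG, and the CArG box bound by serum response factor. None of these letters lies in the stretches of Jun and Jund.
Fos, chr12:85473770-85473889, plus strand: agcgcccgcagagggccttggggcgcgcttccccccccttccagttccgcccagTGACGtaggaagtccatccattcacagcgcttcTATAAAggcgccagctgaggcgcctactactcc
Fosb, chr7:19310046-19310165, minus strand: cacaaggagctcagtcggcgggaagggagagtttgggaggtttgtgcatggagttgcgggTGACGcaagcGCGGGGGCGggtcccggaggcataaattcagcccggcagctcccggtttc
Jun, chr4:95052223-95052342, minus strand: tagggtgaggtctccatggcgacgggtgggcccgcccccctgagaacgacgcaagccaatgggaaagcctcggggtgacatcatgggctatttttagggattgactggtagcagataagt
Junb, chr8:84978749-84978868, minus strand: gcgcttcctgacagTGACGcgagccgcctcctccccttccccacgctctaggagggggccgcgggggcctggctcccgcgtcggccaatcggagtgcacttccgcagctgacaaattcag
Jund, chr8:70697619-70697738, plus strand: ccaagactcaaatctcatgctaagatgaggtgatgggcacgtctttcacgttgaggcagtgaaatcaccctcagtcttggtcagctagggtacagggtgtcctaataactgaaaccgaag
Atf3, chr1:191183334-191183453, minus strand: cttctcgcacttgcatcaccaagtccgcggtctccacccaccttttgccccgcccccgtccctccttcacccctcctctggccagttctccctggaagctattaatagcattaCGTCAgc
Egr2, chr10:67537749-67537868, plus strand: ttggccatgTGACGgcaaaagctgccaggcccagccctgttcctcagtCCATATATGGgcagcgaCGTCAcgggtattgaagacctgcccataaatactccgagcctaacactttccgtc

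RefSeq promoters were at hand for 8 of the 10 genes, 12 promoters in all, since Egr2 has 5 and each of the others 1. The RefSeq start coincides with the GENCODE M21 gene start for Fos and Jun and lies 6 bases from it for Fosb and 30 bases for Junb. It lies 1210 bases upstream of it for Jund and, inside the GENCODE gene, 34706 bases downstream for Atf3. The Egr2 stretch shown belongs to a start 2394 bases downstream of the GENCODE start and was chosen after the motifs were seen. The stretch of Fosl2 lies within a GENCODE exon and is not printed.

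Motifs were searched on both strands within 250 bases upstream, and a gene was counted if any of its promoters held the letters, as were all 27025 genes with a promoter. TGACG lay upstream of 5 of the 8 genes (Fos, Fosb, Junb, Atf3 and Egr2), against 19.8% of all genes; these letters were added after the promoters were seen. The full element TGACGTCA was found in 0 of the 8, against 1.77% of all genes, and the AP-1 site TGANTCA in 0 of the 8, against 7.82%. The Jun stretch above holds tgacatca, a near form of TGACGTCA that none of these searches counts. GCGGGGGCG lay upstream of Fosb and Fosl2, against 2.93% of all genes. The other EGR site searched, GCGTGGGCG, was in 0 of the 8 and in 0.622% of all genes. Egr2 alone had a CArG box, against 1.62% of all genes, in 4 of its 5 promoters, and TGACG in 3 of the 5. Its promoter nearest to the GENCODE start, 24 bases away, held neither. Fos alone had TATAAA, against 14.3% of all genes. The GC box GGGCGG, which overlaps GCGGGGGCG where both occur in Fosb and Fosl2, was found in 6 of the 8, against 35.4% of all genes. These matches describe letters in a short window and not bound sites. Sites more than 250 bases upstream, those of Fos included, were not searched, and Egr1 and Ier2 were not searched at all.

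Fos was the most abundant of the 10 in both groups, and 7 of the 10 genes were higher and 1 was lower in CS1 by the test used throughout, limma on log2(TPM + 1) over 11866 features with Benjamini-Hochberg adjustment. A gene was called where its adjusted p was under 0.05. TPM is a transcript's share of all transcripts after correction for length, so levels of different genes can be set side by side. Over the whole series 67.0% of tested features were called, 35.3% higher and 31.6% lower in CS1, so a call by itself is common here. The 2 libraries of each group did not overlap with those of the other group for any of the 10 genes, against 84.4% of all tested features. The median log2 fold change of the 10 was 0.33, beside 0.04 over all tested features. All 10 passed the filter of at least 1 TPM in at least 2 libraries, but Egr2 passed through its CS1 libraries alone. In bulk samples such as these, a change in how many cells of a type there are and a change in RNA per cell cannot be told apart.

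In CS1 the order of mean TPM, from high to low, was Fos, Jun, Ier2, Junb, Jund, Fosb, Fosl2, Egr1, Atf3 and Egr2. In PBS it was the same except that Junb stood above Ier2. In either group, every library's value for a gene lay above both libraries' values for the next gene in that order. Among all features listed, Fosb ranked 369 and 372 in CS1, against 973 and 990 in PBS, and Fosl2 went the other way, at 2514 and 2492 in CS1, against 1465 and 1524 in PBS.

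**Figure D1:**
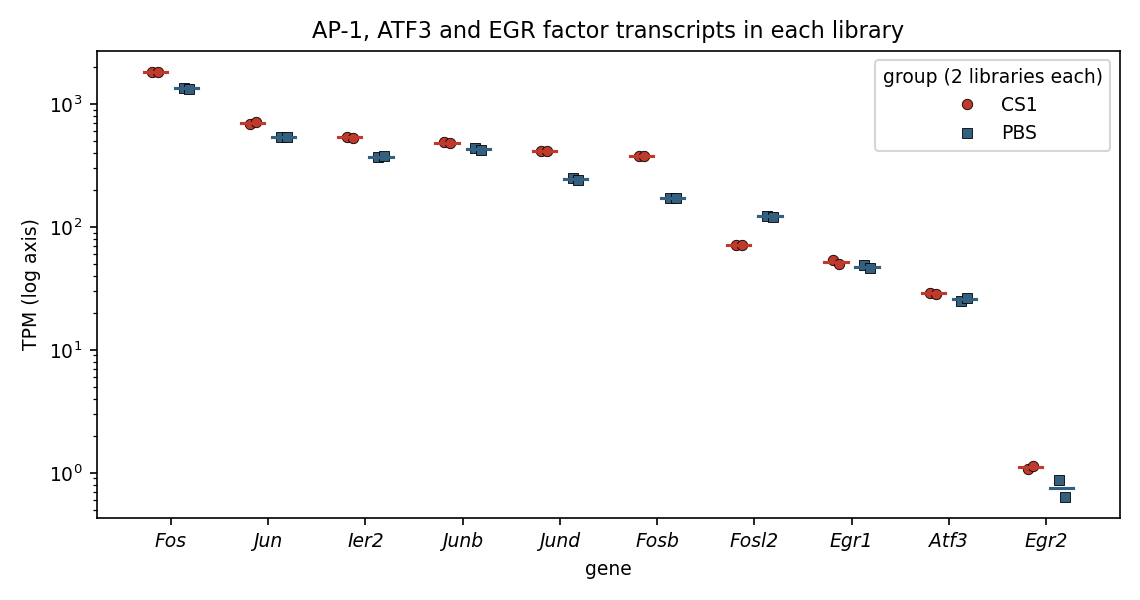
Level of each of the 10 genes in each library, in TPM on a log axis; circles are the 2 CS1 libraries, squares the 2 PBS libraries, and short lines group means. Fos stands highest at 1819 TPM in both CS1 libraries, against 1341 and 1335 TPM in PBS, and Fosl2 is the gene whose CS1 points lie below its PBS points.

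Among the Fos genes, Fos and Fosb rose and Fosl2 fell. Fos, the founding partner of AP-1, had 1819 TPM in both CS1 libraries, against 1341 and 1335 TPM in PBS, a ratio of means of 1.36 (log2 fold change 0.44 ± 0.02, SE, limma adjusted p = 1.3e-05). Fosb, a relative whose shorter splice form is known to persist after repeated stimulation, had 381 and 377 TPM in CS1, against 172 and 171 TPM in PBS. The table gives 1 value per gene, so its splice forms were not separated. Its ratio was 2.21 (log2 fold change 1.14 ± 0.02, adjusted p = 2.44e-06), and 3.76% of all tested features had a higher log2 fold change. Fosl2, which encodes FRA-2, a FOS protein without the strong activation domain of FOS, had 70.9 TPM in both CS1 libraries, against 124 and 120 TPM in PBS. Its ratio was 0.583 (log2 fold change -0.77 ± 0.03, adjusted p = 1.29e-05), and 5.22% of tested features had a lower one. The remaining Fos gene, Fosl1, which encodes FRA-1, was close to the lower end of the table at 0.27 and 0.54 TPM in CS1 and 0.52 and 0.30 TPM in PBS, and was not tested. The Fos gene (chromosome 12, 85473890 to 85477273, plus strand, mm10), Fosb (chromosome 7, 19302696 to 19310051, minus strand) and Fosl2 (chromosome 5, 32135801 to 32157842, plus strand) each have 4 exons in the GENCODE M21 coding transcript used here and share no exon sequence with another annotated gene.

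The Jun genes were all higher in CS1, by unequal amounts. Jun, the main DNA-binding partner of FOS, had 693 and 718 TPM in CS1, against 539 and 535 TPM in PBS (log2 fold change 0.39 ± 0.02, SE, limma adjusted p = 5.62e-05). Jund, which is known to be less dependent on acute stimulation than the other Jun genes, had 415 and 418 TPM in CS1, against 252 and 242 TPM in PBS. Its log2 fold change was 0.75 ± 0.03 (adjusted p = 8.61e-06), with a ratio of means of 1.69. Junb, which can restrain JUN and is known as a brake on myeloid expansion in mice, had 487 and 482 TPM in CS1, against 436 and 425 TPM in PBS, a ratio of 1.13 (log2 fold change 0.17 ± 0.02, adjusted p = 0.00105). The rise of Junb was thus small next to that of Jund, although its groups did not overlap. Under TMM scaling (trimmed means of log ratios), which moved the median of all tested features to -0.02, Junb stood at 0.10 and Jund at 0.69, and both were still called.

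All 3 Jun genes have a single exon in the coding transcript used. Jun lies on chromosome 4 (95049034 to 95052222, minus strand), and Junb (84974484 to 84978718, minus strand) and Jund (70698949 to 70700616, plus strand) on chromosome 8. Exons of another annotated gene overlap each of them on the opposite strand, by 232 bases for Jun, by 173 bases for Junb and by 877 bases for Jund. No source at hand says whether reads were assigned by strand, so these values are uncertain to that extent. The partner of Junb is Prdx2, a peroxiredoxin gene, which went the other way at 86.4 and 81.7 TPM in CS1, against 110 and 108 TPM in PBS (log2 fold change -0.37, limma adjusted p = 0.000348). The partners of Jun and Jund, Junos and Gm11175, are not listed in the table under those names.

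Ier2, a small nuclear protein gene of the immediate early class, rose about as much as Fos. It had 543 and 526 TPM in CS1, against 368 and 376 TPM in PBS (log2 fold change 0.52 ± 0.03, SE, limma adjusted p = 2.61e-05). Like the Jun genes it has 1 exon (chromosome 8, 84661331 to 84662852, minus strand).

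Atf3 and the EGR genes differed little between the groups. Atf3, a stress-induced ATF protein that represses many inflammatory genes, had 29.2 and 28.4 TPM in CS1, against 25.2 and 26.5 TPM in PBS, a ratio of 1.11. It passed the test narrowly (log2 fold change 0.15 ± 0.05, SE, limma adjusted p = 0.0408), but was called in only 4 of 12 alternatives, over an adjusted p of 0.0354 to 0.165. Without PBS replicate 1, PBS replicate 2, CS1 replicate 1 or CS1 replicate 2 its adjusted p was 0.165, 0.0542, 0.158 and 0.0927. Egr1 had 54.2 and 49.5 TPM in CS1, against 48.5 and 46.1 TPM in PBS, and did not pass (log2 fold change 0.13, 95% interval -0.01 to 0.26, adjusted p = 0.0855). The nearest libraries of the groups were 49.5 TPM in CS1 and 48.5 TPM in PBS. It was called without CS1 replicate 2 (log2 fold change 0.19, adjusted p = 0.0428) and after quantile normalization (0.16, adjusted p = 0.0426), and not after TMM scaling (0.06, adjusted p = 0.322). Egr2, which with Egr1 is known to favour the macrophage over the neutrophil fate, had 1.08 and 1.13 TPM in CS1, against 0.87 and 0.64 TPM in PBS. At this level the test gave a log2 fold change of 0.27 with a 95% interval of -0.11 to 0.64 (adjusted p = 0.17), so neither a rise nor a fall was detectable. The other EGR genes were lower still and not tested: Egr3 had 0.66 and 0.53 TPM in CS1, against 0.16 and 0.23 TPM in PBS, and Egr4 was at or below 0.07 TPM in every library.

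**Figure D2:**
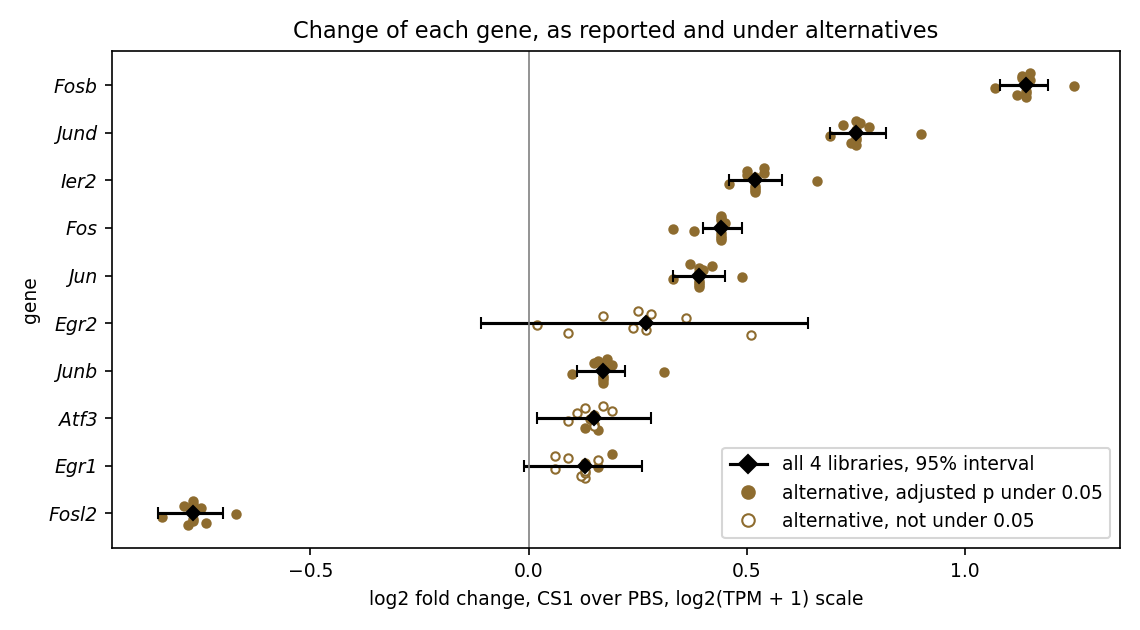
Log2 fold change of each gene, CS1 over PBS, on the log2(TPM + 1) scale; diamonds with bars are the reported values with their 95% interval, and circles the alternatives, filled where the adjusted p was under 0.05. Fosb lies between 1.07 and 1.25 and Fosl2 between -0.84 and -0.67 in every alternative, while circles of Egr1, Egr2 and Atf3 are mostly open; the filled one of Egr2, at 0.27 with the variance trend off, lies under its diamond.

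Summed over genes, the Fos family had 2270 and 2267 TPM in CS1, against 1638 and 1625 TPM in PBS, and the Jun family 1594 and 1618 TPM in CS1, against 1227 and 1203 TPM in PBS. The sums were thus 1.39 and 1.32 times as high in CS1. Egr1 and Egr2 together had 55.2 and 50.6 TPM in CS1, against 49.4 and 46.8 TPM in PBS. With 2 libraries against 2, a two-sided exact permutation test cannot give a p under 0.333, which was the value for each of these sums. The 10 genes made up 0.459% of all TPM in both CS1 libraries, against 0.335% and 0.332% in PBS. The ratio of the Fos sum to the Jun sum had no fixed direction, at 1.42 and 1.40 in CS1 and 1.33 and 1.35 in PBS as deposited, but 1.31 and 1.30 in CS1 and 1.42 and 1.43 in PBS after quantile normalization.

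Within the families, the make-up shifted most among the Fos genes. Fosb made up 16.8% and 16.6% of the Fos family in CS1, against 10.5% in both PBS libraries, and Fosl2 3.12% and 3.13% in CS1, against 7.55% and 7.36% in PBS. The levels of these 2 genes lay further apart in CS1 than in PBS: the ratio of Fosb to Fosl2 was 5.37 and 5.32 in CS1, against 1.39 and 1.43 in PBS. The share of Fos itself was slightly lower, 80.1% and 80.3% in CS1 against 81.9% and 82.1% in PBS. In the Jun family, Jund made up 26.0% and 25.8% in CS1, against 20.5% and 20.1% in PBS, and Junb 30.5% and 29.8% in CS1, against 35.5% and 35.4% in PBS. The share of Jun overlapped between the groups, at 43.5% and 44.4% in CS1 and 44.0% and 44.5% in PBS. The exact permutation p of each of these shares was 0.333, the smallest possible, except that it was 0.667 for the share of Jun.

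**Figure D3:**
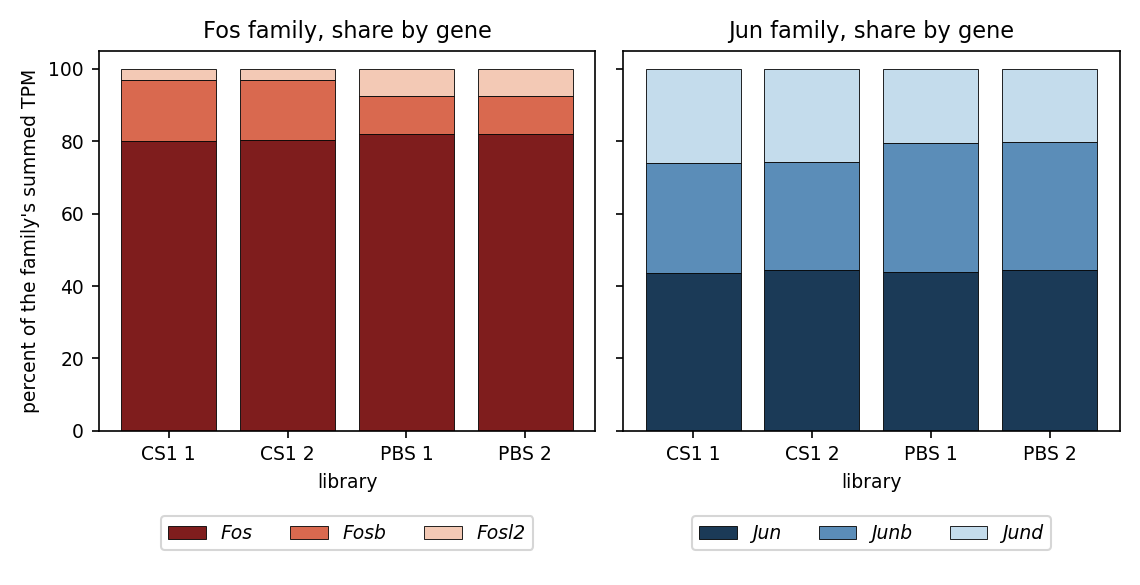
Share of each gene in the summed TPM of its family, in percent, for the Fos family (left) and the Jun family (right); each bar is 1 library, CS1 before PBS. Fosb takes a larger and Fosl2 a smaller part of the CS1 bars, at 16.8% and 3.12% in CS1 replicate 1 against 10.5% and 7.55% in PBS replicate 1.

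Other basic leucine zipper proteins pair with the FOS and JUN proteins or compete for their sites, and their genes did not move as a block. Of 16 tested, 5 were higher, 7 lower and 4 did not pass, with a median log2 fold change of -0.13. The lower ones included Batf, an AP-1 subunit of lymphoid and myeloid cells, at 36.4 and 36.7 TPM in CS1, against 79.8 and 89.8 TPM in PBS (log2 fold change -1.19 ± 0.06, SE, limma adjusted p = 2.74e-05). Nfe2l2, the NRF2 regulator of antioxidant genes, had 53.8 and 52.4 TPM in CS1, against 115 and 120 TPM in PBS (log2 fold change -1.13), and Bach1, a repressor of the same sites, had 50.0 and 50.9 TPM in CS1, against 105 and 107 TPM in PBS (log2 fold change -1.05). An activator and a repressor of antioxidant genes were thus both lower. Chosen after their values were seen, Batf3, a factor of conventional dendritic cells, was higher at 7.96 and 7.21 TPM in CS1, against 3.08 and 3.34 TPM in PBS (log2 fold change 1.03), and Jdp2, a repressive partner of JUN, did not pass at 88.4 and 83.4 TPM in CS1, against 89.0 and 86.6 TPM in PBS (adjusted p = 0.505).

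Some of these genes are neighbours of the AP-1 genes on the chromosome, and those of Fos did not rise with it. Jdp2 lies 121.8 kb and Batf 209.4 kb beyond Fos on chromosome 12 with no other tested protein-coding gene between Fos and Jdp2. Fos rose (log2 fold change 0.44), Jdp2 did not pass (-0.03) and Batf fell (-1.19). On the other side of Fos the nearest tested gene, Tmed10, had a log2 fold change of -0.13. Batf3 lies 61.4 kb from Atf3 on chromosome 1 and had a log2 fold change of 1.03, beside 0.15 for Atf3. The nearest tested neighbours of Fosb were the actin regulator gene Vasp, which fell (-0.59), and the repair gene Ercc1, which did not pass (-0.02). Those of Jund, Lsm4 and Rab3a, had log2 fold changes of 0.31 and 0.72 and were both called, and those of Fosl2, Rbks and Ppp1cb, 0.57 and -0.31. The neighbours were looked up after the values of the 10 genes were known.

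The EGR proteins are held back by the NAB corepressors, and the 2 NAB genes moved apart. Nab2, itself a known EGR1 target, had 5.71 and 6.28 TPM in CS1, against 3.43 and 3.12 TPM in PBS (log2 fold change 0.71, limma adjusted p = 0.00185). Nab1 had 26.8 and 24.8 TPM in CS1, against 35.5 and 38.9 TPM in PBS (log2 fold change -0.51, adjusted p = 0.001).

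Upstream genes were lower more often than higher in CS1, unlike Fos and Jun themselves. Of 6 tested genes for serum response factor and its cofactors, 4 were lower and 0 higher, also 0 at an unadjusted p under 0.05 in limma, and the median log2 fold change was -0.26. Srf had 45.1 and 42.6 TPM in CS1, against 52.4 and 54.1 TPM in PBS (log2 fold change -0.28, limma adjusted p = 0.00245). Its actin-sensing coactivator Mkl1 and its ETS-domain cofactor Elk3 had log2 fold changes of -0.56 and -0.63. The kinases that signal to AP-1 were lower in 13 of 18 cases and higher in 3, with a median of -0.29. Map2k1, which encodes MEK1, had 89.4 and 93.3 TPM in CS1, against 147 and 148 TPM in PBS (log2 fold change -0.68, adjusted p = 2.05e-05). Mapkapk2, a kinase downstream of p38, had 292 and 294 TPM in CS1, against 369 and 365 TPM in PBS (-0.32). The JNK route, which phosphorylates JUN and whose genes are named here after their values were seen, moved in both directions. Mapk8, Mapk9 and their activator Map2k7 were the 3 called higher, with log2 fold changes of 0.38, 0.22 and 0.14. The other direct activator, Map2k4, and the kinases above it, Map3k1 and Map3k5, were called lower, at -0.32, -0.40 and -0.33. The number of kinases called higher, out of all 18, depended on the setting, at 6 after quantile normalization and 1 after TMM scaling.

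Of 12 tested genes for CREB, ATF and CHOP factors and their stress targets, which stand beside Atf3, 3 were higher and 7 lower (median log2 fold change -0.33). Atf4, the central activator of the amino acid and folding stress response and a known activator of Atf3, rose, at 412 and 422 TPM in CS1, against 294 and 298 TPM in PBS (log2 fold change 0.49, limma adjusted p = 2.23e-05). Ddit4, an mTOR inhibitor and ATF4 target, had a log2 fold change of 0.62. Cebpb, a CCAAT-binding factor of activated myeloid cells, fell, at 609 and 581 TPM in CS1, against 944 and 906 TPM in PBS (-0.63). Asns, a classical ATF4 target named after its value was seen, was lower at 11.2 and 8.63 TPM in CS1, against 14.8 and 15.0 TPM in PBS (-0.55).

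Other immediate early genes were mixed. Of 34 tested, 18 were higher, 10 lower and 6 did not pass, with a median log2 fold change of 0.19. Klf2, a quiescence-linked zinc finger factor, had 577 and 578 TPM in CS1, against 361 and 352 TPM in PBS (log2 fold change 0.70, limma adjusted p = 6.37e-06), and the GTPase gene Rhob 428 and 422 TPM in CS1, against 268 and 269 TPM in PBS (0.66). Dusp6, the phosphatase that switches off ERK and is itself induced by it, was lower, at 51.7 TPM in both CS1 libraries, against 102 and 99.8 TPM in PBS (log2 fold change -0.95, adjusted p = 6.82e-06). The following were named after their values were seen. Zfp36, which encodes the decay factor tristetraprolin, was of the order of Fos in level and rose by a like amount, with 1465 and 1481 TPM in CS1, against 1135 and 1108 TPM in PBS (0.39), as did the phosphatase gene Dusp1, with 1271 and 1241 TPM in CS1, against 961 and 981 TPM in PBS (0.37). Nr4a1, a nuclear receptor often induced in parallel with Egr1, fell (-0.53), and so did the cytokine feedback gene Socs3 (-1.23).

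Heat shock genes, which are known to rise together with Fos and Jun when tissue is dissociated, were not called higher. Whether dissociation affected any of these values was not tested. Of 12 tested, 0 were higher and 7 lower, with a median log2 fold change of -0.18; 2 were called higher after quantile normalization and 1 without PBS replicate 2. At an unadjusted p under 0.05 limma also gave 0 higher. Hspa8, the constitutive chaperone, had 1579 and 1611 TPM in CS1, against 2304 and 2326 TPM in PBS (log2 fold change -0.54, limma adjusted p = 9.93e-06). The inducible Hspa1a had 45.4 and 45.9 TPM in CS1, against 203 and 199 TPM in PBS, and its near-identical copy Hspa1b 19.7 and 18.0 TPM in CS1, against 148 and 161 TPM in PBS; reads cannot be split safely between such copies, which makes both values uncertain.

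**Figure D4:**
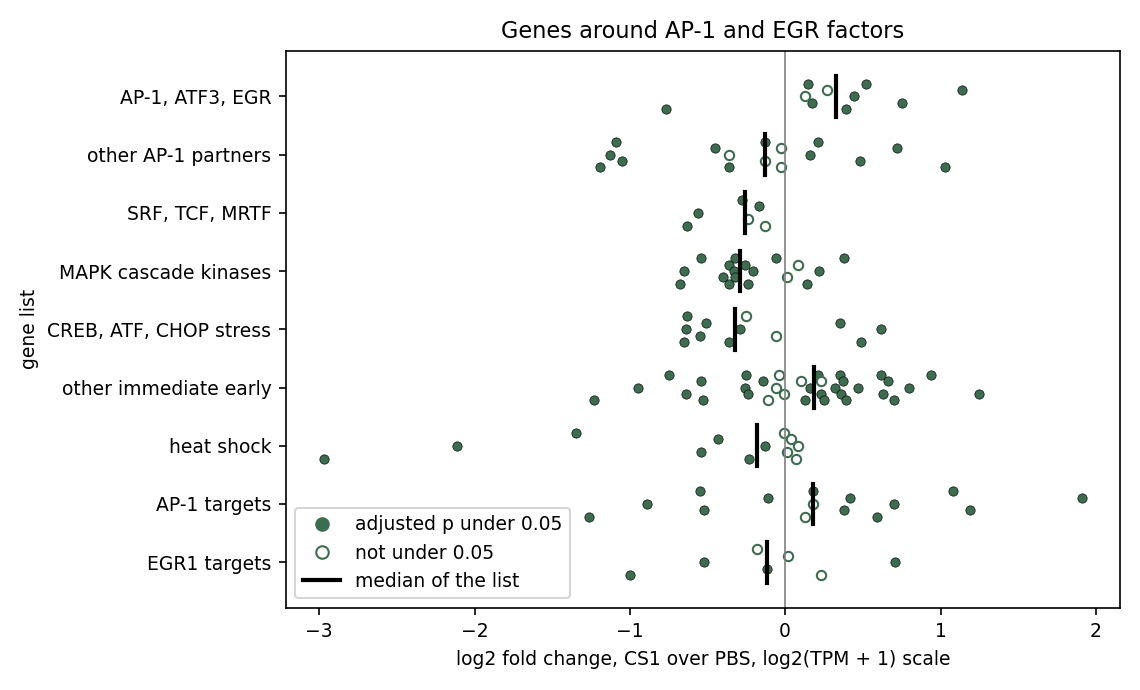
Log2 fold change, CS1 over PBS, on the log2(TPM + 1) scale, of the tested genes of each list; each circle is a gene, filled where the adjusted p was under 0.05, and the bar is the list's median. The AP-1, ATF3 and EGR genes have a median of 0.33, the kinases of the MAPK cascade one of -0.29.

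Known AP-1 target genes moved in both directions. Of 15 tested, 8 were higher and 5 lower (median log2 fold change 0.18), beside 35.3% and 31.6% of all tested features. The metallothionein gene Mt1 had 271 and 253 TPM in CS1, against 122 and 124 TPM in PBS (log2 fold change 1.08, limma adjusted p = 7.73e-06). Hmox1, the inducible haem oxygenase, had 115 and 114 TPM in CS1, against 275 and 276 TPM in PBS (-1.26), and Cd44, the hyaluronan receptor, 320 and 309 TPM in CS1, against 577 and 592 TPM in PBS (-0.89). Named after its value was seen, the gelatinase gene Mmp9 had 57.1 and 56.8 TPM in CS1, against 35.3 and 34.2 TPM in PBS (0.70). Of 7 tested EGR1 targets, 1 was higher and 3 lower (median -0.12): besides Nab2, the adhesion gene Icam1 had 19.9 and 19.6 TPM in CS1, against 40.8 and 40.4 TPM in PBS (a ratio of means of 0.486), and Tgfb1, which is in both target lists, had a log2 fold change of -0.52.

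The 10 genes share features of short-lived transcripts only in part. In the GENCODE M21 coding transcripts, 5 of the 10 have at least 3 copies of ATTTA, the core of the AU-rich decay element, in the 3′ untranslated region, against 33.6% of 10856 tested genes. Fosl2 has 8 copies, Fos and Jun 4 each, Fosb and Jund 1 each, and Ier2 0. Per kb of 3′ untranslated region, which is longest in Fosl2 at 4653 bases, Fos has 4.91, Junb 4.12 and Jun 3.24. Atf3 has 2.53, Egr2 2.5, Jund 1.88, Fosl2 1.72, Egr1 1.64 and Fosb 0.466, beside a median of 1.22 over all genes. GGACT, a frequent form of the motif at which m6A is placed on RNA, occurs 3.29 times per kb in Ier2 and 2.40 in Jund. It occurs 2.2 times per kb in Jun, 1.9 in Fos and 1.66 in Junb. Fosb, which rose most, has 1.32 per kb, and Fosl2, which fell, has 1.22. Egr1 has 1.12, Atf3 1.01 and Egr2 0.675. In all, 8 of the 10 genes lie above the median of 1.06 per kb of all genes. A motif does not show that a site is methylated. Both counts were chosen after the values were seen and are given without a test.

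By the distance between log2(TPM + 1) profiles centred on their mean over the 4 libraries, the features nearest to Fos among 8506 with at least 10 TPM on average were Srrt, Rrnad1 and Rpl36 (distances 0.011 to 0.013), and those nearest to Jun were Rps15, Itfg2 and Gtpbp10 (0.009 to 0.015). Those nearest to Atf3 were Supv3l1, Rfxap and Cpsf6, and those nearest to Egr1 were Crebrf, Rgp1 and Sec11c. With 4 libraries in 2 groups such profiles are common: 446 features lay within 0.1 of Fos and 459 within 0.1 of Jun.

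Markers of blood cell types moved with the groups in the same libraries. Ptprc, which encodes the CD45 used to enrich the cells, was well above 0 in every library, at 323 and 315 TPM in CS1, against 583 and 597 TPM in PBS. Of 7 promyelocyte markers, 7 were higher, with sums of 5794 to 5865 TPM in CS1 against 1466 to 1472 TPM in PBS, and Elane, Mpo and Ms4a3 had log2 fold changes of 2.56, 2.33 and 2.15. The 9 neutrophil markers moved in both directions, 5 higher and 3 lower. Camp, Ngp and S100a9 were higher, with log2 fold changes of 2.43, 2.18 and 1.85. Named after their values were seen, Mmp8 (-1.05), Ltf (-0.65) and Cxcr2 (-0.43) were the 3 lower, and Ly6g was not called (-0.04). Of 6 stem and progenitor markers 5 were higher, among them Myb, Flt3 and Hoxa9, and 1 was lower. Of 10 tested monocyte and macrophage markers 7 were lower and 2 higher, with sums of 9243 to 9268 TPM in CS1 against 17310 to 17440 TPM in PBS; Lyz2, Cd68 and Csf1r had log2 fold changes of -1.09, -0.98 and -0.74. Of 6 dendritic cell markers 5 were higher and 1 lower (Flt3 and Itgax with log2 fold changes of 1.00 and 0.59, and Cd209a with -1.22). T cell markers summed to 7.51 to 7.75 TPM in CS1 and 11.9 to 13.0 TPM in PBS, with Cd3e and Lck called lower and Cd3g not, and B cell markers to 43.6 to 45.5 TPM in CS1 and 67.9 to 70.4 TPM in PBS, with 5 of 6 lower, Cd79b, Pax5 and Cd22 among them. Natural killer markers summed to 11.5 to 13.4 TPM in CS1 and 9.87 TPM in both PBS libraries. Klrd1 alone was higher in CS1 (log2 fold change 0.69) and made up most of each sum, while Gzma was lower (-0.65). Named after their values were seen, Ncr1, Klrb1c, Prf1 and Eomes were under 1 TPM in every library and not tested. Each of them was lower in both CS1 libraries than in either PBS library. Stroma and endothelium markers stood at 38.5 to 41.0 TPM in CS1 and 46.3 to 47.9 TPM in PBS, nearly all of it Pecam1, which leukocytes also express, and Kdr, an endothelial marker, was at or below 0.03 TPM in every library. Erythroid markers summed to 36.2 to 42.9 TPM in CS1 and 19.0 to 19.5 TPM in PBS, with Hbb-bs listed at 0.01 in both PBS libraries. Hba-a1 was listed at 0.01 in CS1 replicate 2 alone. Hba-a2, named after its values were seen, was the reverse, at 19.3 TPM in CS1 replicate 2 and 0.01 in every other library. This makes the values of both genes uncertain. Platelet markers summed to 7.41 to 9.73 TPM in CS1 and 4.55 to 5.50 TPM in PBS, with Pf4 and Ppbp listed at 0.01 throughout. The part of cell make-up in the changes of the 10 genes was not tested.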

How the data were processed

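Poly(A) RNA was sequenced from 2 CS1 and 2 PBS libraries, grouped by sample title. The deposited table has 1 value per feature and library, taken as the authors' TPM. No header or label names the unit, which was inferred from decimals, from column sums of 977973 to 986345 and from RSEM, which the submitters' processing notes name beside STAR and mm10 without roles or versions. TPM keeps no read depth, so depth is unknown, no counting interval is given, and it could not be tested whether replicates differ beyond sampling noise. The lowest listed value is 0.01. Features that reached 1 TPM in 2 or more libraries were kept, transformed to log2(TPM + 1), which understates changes of low genes, and compared with limma 3.58.1 (R 4.3.3, variance trend on, two-sided, Benjamini-Hochberg over 11866 features, called under 0.05). The script was tested on simulated data. TMM scaling, an alternative, was computed from the TPM values by the published formula. With 2 libraries a group, the test borrows its estimate of spread from all features.

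The 10 genes and all lists were chosen with earlier results of these data known. Named genes are the 10, in every other list the 3 genes of smallest p, and the 3 features nearest to Fos, Jun, Atf3 and Egr1 in profile; others are said to be named after their values were seen. A gene that this rule names is not reported here. Coordinates are from GENCODE M21 (GRCm38, the assembly of mm10) and promoters from RefSeq on GRCm38.p6.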

Additional observations from a re-analysis of the deposited data

How the results depend on the processing

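Fos, Fosb, Jun, Junb, Jund and Ier2 stayed called higher and Fosl2 called lower under all 12 alternatives, which were 2 pseudocounts, 2 filters, 2 scalings, the variance trend off, the replicate block and each library left out. Atf3 stayed called in 4 of 12, Egr1 became called in 3 of 12 and Egr2 in 1 of 11. The 10 genes gave 6 to 8 higher and 1 lower throughout; leaving out each library gave 6 to 7 higher. With the replicate block 7 were higher and 1 lower, as without it, but Atf3 was lost (limma adjusted p = 0.0666) and Egr1 gained (0.0423). Deviations of same-numbered libraries from their group means were hardly correlated (r = 0.022 over 11866 features). A single correlation cannot show whether the numbers pair libraries, which the labels do not state. Over all features the block gave 4110 higher and 3640 lower, against 4194 and 3755. With no filter these were 2797 and 2758 of 24497 features. Among the other lists, AP-1 partners called higher numbered 5, against 2 with no filter, 3 without PBS replicate 1, 2 without PBS replicate 2 and 2 without CS1 replicate 1. Kinases called higher numbered 3, against 0 with no filter and 1 to 6 in 5 others. Serum response factor genes called lower numbered 4, against 2 with no filter, and CREB and ATF genes 7, against 4 with no filter or without PBS replicate 2. EGR1 targets called higher numbered 1, against 2 without CS1 replicate 1. The Jun family sum was 1.32 times as high in CS1 as deposited and 1.44 times after quantile normalization. The causes of these shifts were not tested. A count-based test was not run, since the values are TPM.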

Other observations

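Among the 10 genes, 4 (Jun, Junb, Jund and Ier2) have a single exon, so all single-exon genes were looked at, a choice made after the values were seen. Of 272 tested single-exon protein-coding genes, 44.5% were called higher and 17.3% lower in CS1, with a median log2 fold change of 0.21. Of 10584 with more exons, 34.9% were higher and 33.3% lower, with a median of 0.03. These are descriptions without a test.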
